A study of Mus musculus with 8 samples.

Results

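The genes of the ATP-dependent chromatin remodellers were read in mouse oocytes with and without Dicer, the enzyme that makes mature small RNAs by cutting longer double-stranded ones. Members were taken by name, as every gene whose single symbol in the platform annotation began with Smarc or Ino80, or with Chd, Arid or Baz and a digit, and each gene was represented by whichever of its probe sets was brightest on average over the 8 arrays. This gave 42 of 18193 genes, measured by 105 of 45037 probe sets. The name rule is both wider and narrower than the family. It misses remodeller genes with other symbols, such as the ATPases Srcap and Hells, which are read below from further lists. Of the 42 genes, 35 encode a remodelling enzyme or a subunit of its complex, 6 are ARID3, ARID4 or ARID5 genes, whose proteins bind DNA or chromatin but are not remodeller subunits, and 1, Ino80dos, is an RNA transcribed opposite to Ino80d.

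The oocytes were fully grown and at the germinal vesicle stage, before meiosis resumes, and came from females of the strain given as 129/C57BL6 that had received equine chorionic gonadotropin, a hormone that makes follicles grow. All groups shared this treatment and the removal of cumulus cells by pipetting. The groups were 4 wild-type and 4 Dicer knockout mice, with 1 Affymetrix mouse expression array per mouse made from the RNA of 20 oocytes after 2 rounds of amplification. The labels used here name neither the Dicer allele, nor what deleted it, nor the age of the mice. Since 20 oocytes were pooled, less RNA in every oocyte and RNA missing from some oocytes cannot be told apart.

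Remodellers use the energy of ATP to slide, eject or exchange nucleosomes, the histone spools that package DNA. They fall into the SWI/SNF, ISWI, CHD and INO80 families, each built around an ATPase of the Snf2 type, which partner subunits guide to its targets. The fully grown oocyte packs its chromatin and shuts down transcription, and the remodeller proteins and transcripts that it stores serve the embryo until its own genome is switched on.

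Few members passed the test, in either direction. In limma's fit across all probe sets, with Benjamini-Hochberg adjustment and a threshold of 0.05, 2 members rose (Smarca2 and Baz2b) and 2 fell (Arid2 and Arid4a), and 38 did not pass. The 4 are 9.52% of the members, beside 21% of all 18193 genes, of which 8.18% rose and 12.8% fell. The median log2 difference, knockout minus wild type, was -0.0059 over the members and 0.0027 over all genes, with quartiles at -0.17 and 0.14 for the members and -0.18 and 0.14 for all genes. None of the 4 reached 2-fold, beside 801 of the 3818 genes that passed, and 4 genes are too few to compare with that share. For 29 members, the 95% interval of the difference lay within 0.5 log2 of 0, a count that was not made over all genes. The groups of 4 arrays did not overlap in 7 members (16.7%), beside 26.2% of all genes. After quantile normalisation the split was 4 that rose and 2 that fell, and after cyclic loess 6 and 2. Without wild-type array 1, 4 members rose, with Arid4b and Chd9 added, and without wild-type array 3, 4 fell, with Ino80c and Arid3b added. Among the 35 remodeller genes proper that the name rule caught, 2 rose and 1 fell (8.57%).

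**Figure D1:**
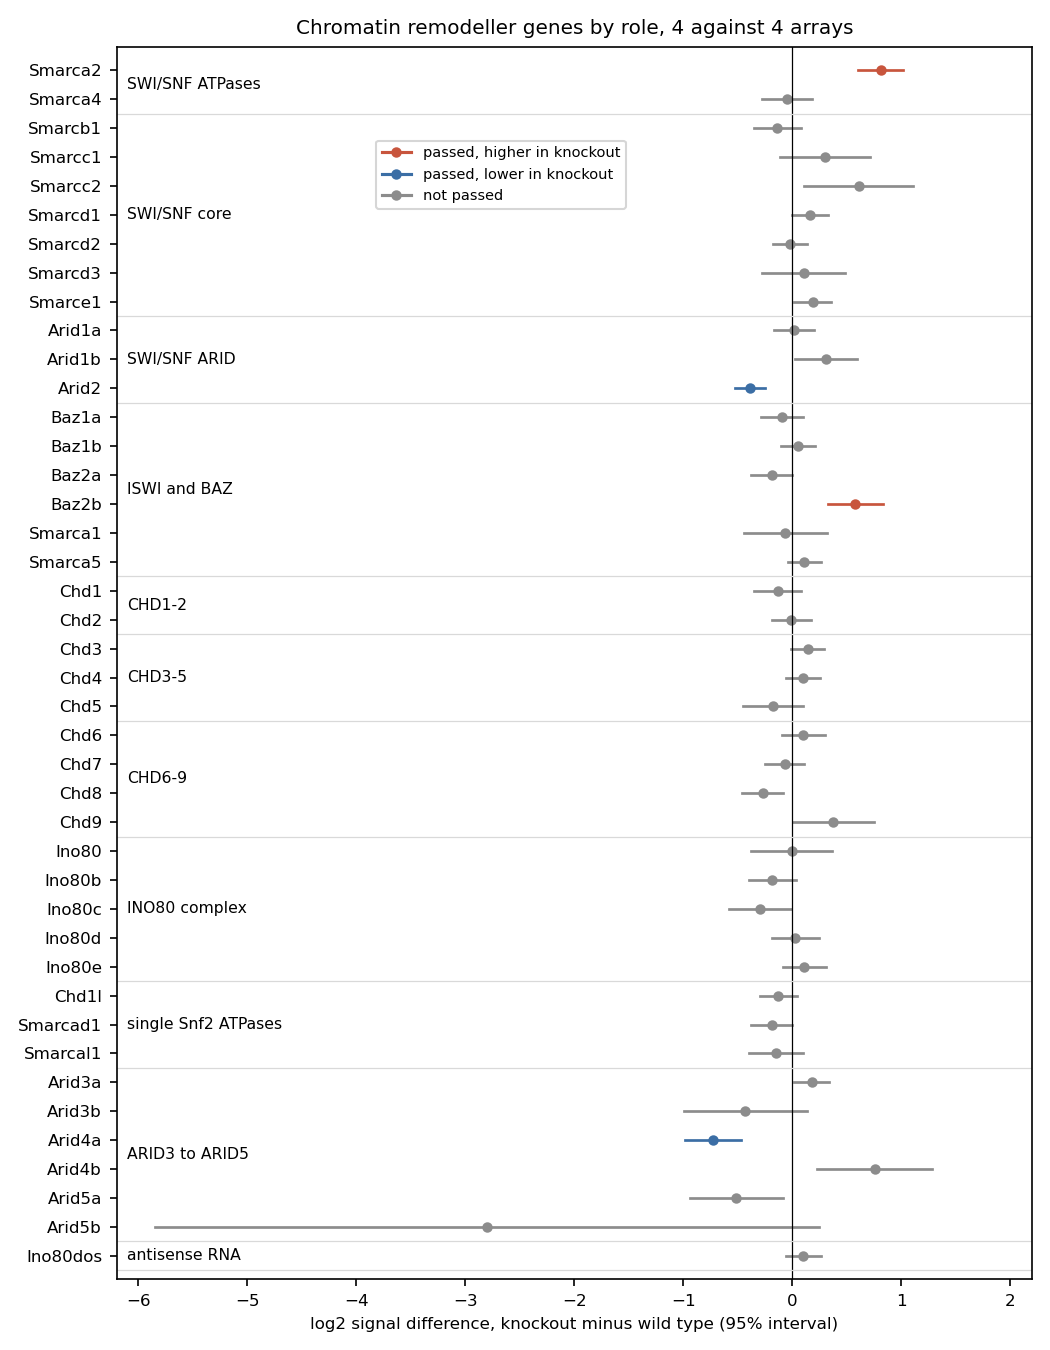
Log2 signal difference, knockout minus wild type, of the 42 genes (horizontal axis) grouped by role (vertical axis), each point the difference of the means of 4 and 4 arrays and each line its 95% interval from limma. Smarca2 and Baz2b lie to the right and Arid2 and Arid4a to the left of 0, most of the others lie near 0, and Arid5b has by far the widest interval, from -5.85 to 0.25.

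SWI/SNF complexes, also called BAF, carry 1 of 2 interchangeable ATPases, Smarca4 (Brg1) or Smarca2 (Brm). By the brighter probe set of each, Smarca2 rose and Smarca4 did not pass. Smarca4, which the egg supplies to the embryo and which the early embryo needs, read 11.78, 11.52, 11.70 and 11.72 on the 4 wild-type arrays and 11.78, 11.50, 11.44 and 11.78 on the 4 knockout arrays. The groups overlapped throughout, and the log2 difference of -0.05 had a 95% interval from -0.28 to 0.18 (adjusted p = 0.803). Smarca2 read 11.14, 10.91, 10.90 and 10.79 on the wild-type arrays, against 11.74, 11.81, 11.82 and 11.61 on the knockout arrays. Every knockout array lay above every wild-type array, with means of 10.94 ± 0.144 and 11.75 ± 0.0982 (SD, n = 4 and 4). The rise was 0.81 ± 0.0909 (SE) on the log2 scale, or 1.75-fold (limma adjusted p = 0.000355). The difference between the responses of Smarca2 and Smarca4 was not tested.

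The Smarca2 call rested on 1 of its 2 probe sets. The dimmer probe set read 8.82, 8.44, 8.70 and 8.69 on the wild-type arrays, against 8.88, 8.66, 8.53 and 8.54 on the knockout arrays. Its groups overlapped, and its difference was -0.01 (adjusted p = 0.966). The name of the brighter probe set carries the suffix for probes shared by several transcripts of a gene, and with such probe sets avoided Smarca2 no longer passed. Averaged over both probe sets the rise was 0.40 (adjusted p = 0.00826).

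The 250 bases before the transcription start of both ATPase genes are shown because these paralogues occupy the same place in the complex, with GC boxes (GGGCGG or CCGCCC) in capitals. They are from RefSeq, assembly GRCm38.p6, Smarca2 at chr19:26604910-26605159 and Smarca4 at chr9:21615919-21616168, both on the plus strand.
Smarca2: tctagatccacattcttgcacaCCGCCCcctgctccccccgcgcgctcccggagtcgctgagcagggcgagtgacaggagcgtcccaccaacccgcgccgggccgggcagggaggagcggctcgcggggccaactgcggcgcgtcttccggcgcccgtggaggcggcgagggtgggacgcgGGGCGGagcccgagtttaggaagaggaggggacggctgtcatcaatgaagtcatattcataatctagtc
Smarca4: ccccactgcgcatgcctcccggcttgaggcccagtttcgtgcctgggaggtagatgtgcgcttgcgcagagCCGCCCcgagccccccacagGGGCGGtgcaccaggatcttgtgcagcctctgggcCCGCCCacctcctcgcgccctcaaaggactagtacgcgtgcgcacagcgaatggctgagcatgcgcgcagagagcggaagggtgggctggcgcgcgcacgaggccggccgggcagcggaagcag
The Smarca2 window held 2 GC boxes and 28 CpG dinucleotides, and the Smarca4 window 3 and 25. Their G and C content was 68.4% and 70.8%.

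The 7 core and accessory subunits of SWI/SNF did not pass, although 2 of them had an unadjusted p under 0.05. Smarcc2, a scaffold subunit, read 8.48, 8.72, 8.10 and 8.99 on the wild-type arrays, against 9.58, 8.93, 8.77 and 9.44 on the knockout arrays. The arrays of both groups interleaved, and the difference of 0.61 ± 0.224 (SE) missed the threshold (adjusted p = 0.102). Its paralogue Smarcc1 read 8.45 ± 0.266 and 8.75 ± 0.349 (SD, n = 4 and 4, adjusted p = 0.327), while 1 of its 3 other probe sets passed with a rise of 0.44. Smarcb1, the subunit that grips the nucleosome, read 11.32 ± 0.164 and 11.18 ± 0.103 (adjusted p = 0.403), and 1 of its 2 other probe sets fell by 0.27. Smarcd1, Smarcd2 and Smarcd3, which are alternatives for 1 place in the complex, had differences of 0.16, -0.02 and 0.10.

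Smarce1, a subunit with an HMG box that binds DNA, had probe sets that went opposite ways. The brighter read 11.46, 11.40, 11.29 and 11.44 on the wild-type arrays, against 11.69, 11.64, 11.49 and 11.52 on the knockout arrays. These groups did not overlap, yet the difference of 0.19 missed the threshold (adjusted p = 0.135). A second probe set read 9.90, 10.08, 9.96 and 10.16 on the wild-type arrays, against 9.62, 9.37, 9.48 and 9.59 on the knockout arrays. All 4 knockout arrays lay below the wild-type arrays there, and the fall of 0.51 passed (adjusted p = 0.00372). No direction is given for Smarce1 for this reason.

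The ARID subunits decide which kind of SWI/SNF complex is built, Arid1a and Arid1b that of canonical BAF and Arid2 that of PBAF. Arid2 read 13.02, 12.93, 13.03 and 13.03 on the wild-type arrays, against 12.61, 12.58, 12.64 and 12.63 on the knockout arrays. The knockout arrays all lay below, in a range narrower than the gap between the groups. Arid2 fell by 0.39 ± 0.0628 (SE) on the log2 scale, so that wild type was 1.31-fold above knockout (limma adjusted p = 0.00267). A second Arid2 probe set fell by 0.31 (adjusted p = 0.0214) and its 2 dimmest did not pass, and averaged over all 4 the fall was 0.21 (adjusted p = 0.0249). Arid1a read 13.11 ± 0.129 and 13.12 ± 0.0626 (SD, n = 4 and 4), with an interval of the difference from -0.17 to 0.20. Arid1b had a difference of 0.31 that did not pass (adjusted p = 0.135).

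**Figure D2:**
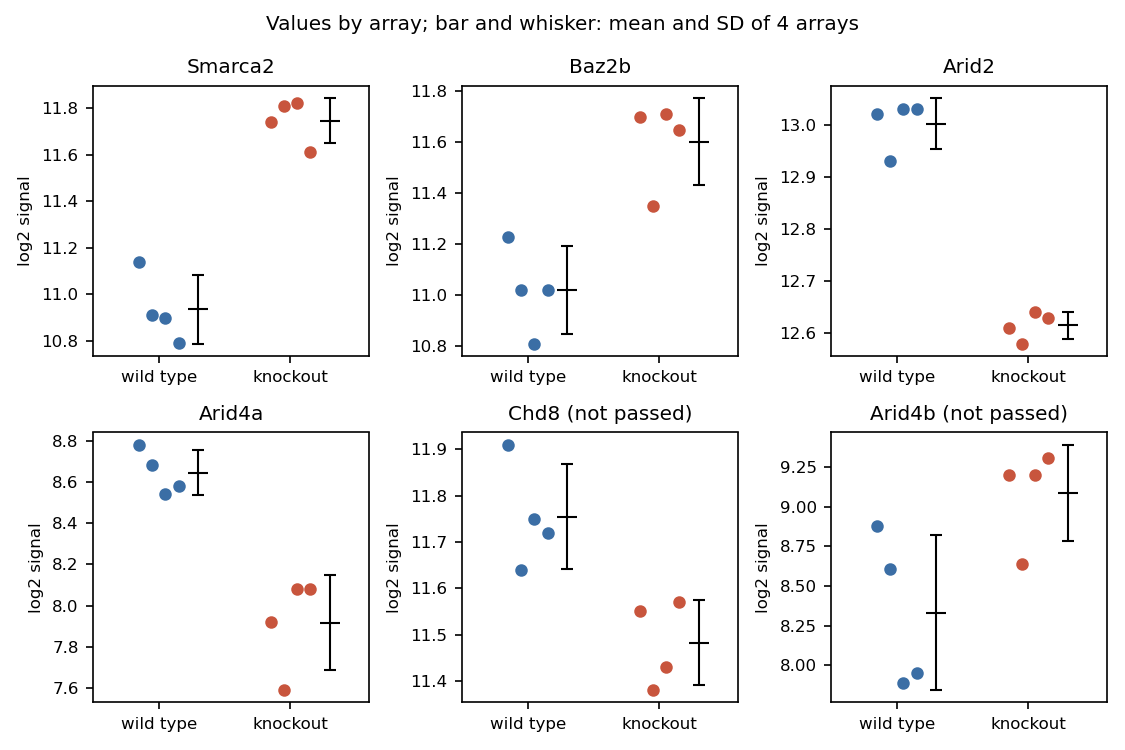
Log2 signal (vertical axis, a scale of its own in each panel) on each wild-type and knockout array for the 4 genes that passed and for Chd8 and Arid4b, the next by p, with the mean and SD of 4 arrays beside the points. The groups do not overlap in Smarca2, Baz2b, Arid2, Arid4a and Chd8, and they do in Arid4b.

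ISWI remodellers space nucleosomes evenly and pair the ATPase Smarca5 (Snf2h) or Smarca1 (Snf2l) with a BAZ or related subunit. Smarca5, the form known from dividing cells and the early embryo, read 12.53 ± 0.0555 and 12.64 ± 0.0587 (SD, n = 4 and 4), a difference of 0.11 with an interval from -0.04 to 0.26. Smarca1, 1 of the 2 dim members (below the median of all probe sets), read 5.67 ± 0.386 and 5.61 ± 0.108. Neither ATPase passed (adjusted p = 0.323 and 0.853).

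Among the BAZ subunits, Baz2b rose. This bromodomain protein, a relative of the nucleolar silencing factor Baz2a, read 11.23, 11.02, 10.81 and 11.02 on the wild-type arrays, against 11.70, 11.35, 11.71 and 11.65 on the knockout arrays. All knockout arrays were higher, knockout array 2 by the least. The rise was 0.58 ± 0.112 (SE) on the log2 scale, or 1.49-fold (limma adjusted p = 0.00721). None of the 4 other Baz2b probe sets passed, with differences from 0.03 to 0.24, so averaging all 5 gave 0.22 (adjusted p = 0.0195). Baz2a differed by -0.19 (adjusted p = 0.161), Baz1a, of the ACF and CHRAC complexes, by -0.09, and Baz1b, of the WICH complex, by 0.06.

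The same stretch is shown for Baz2b, which rose, and for Arid5b, whose values split within the knockout group. Capitals mark CCAAT boxes (CCAAT or ATTGG) and the cyclic AMP response element (TGACGTCA). Both are on the minus strand of GRCm38.p6, Baz2b at chr2:60125741-60125990 and Arid5b at chr10:68278727-68278976.
Baz2b: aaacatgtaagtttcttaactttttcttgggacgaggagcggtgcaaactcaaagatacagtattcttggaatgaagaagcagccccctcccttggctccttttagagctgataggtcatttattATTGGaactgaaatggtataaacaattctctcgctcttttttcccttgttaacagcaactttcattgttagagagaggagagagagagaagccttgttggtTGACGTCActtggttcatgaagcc
Arid5b: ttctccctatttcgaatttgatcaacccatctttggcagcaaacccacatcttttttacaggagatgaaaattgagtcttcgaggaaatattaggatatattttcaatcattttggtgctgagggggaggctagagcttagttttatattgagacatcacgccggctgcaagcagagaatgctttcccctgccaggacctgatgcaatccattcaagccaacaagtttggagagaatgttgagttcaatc
Each window held 4 CpG dinucleotides, and the median of the 39 windows of 31 members found in the RefSeq table was 20, beside 6 for all 32851 windows. Of the 39 windows, 71.8% held a GC box, beside 32.7% of all windows, and 30.8% held a CCAAT box, beside 33.8%. Both strands were searched. The cyclic AMP response element stood in 1 window, that of Baz2b (1.5% of all windows), the E box CACGTG in 1, that of Ino80e (6% of all), and the palindromic NRF1 site in 0 (0.8% of all). A match describes these letters and no factor was measured.

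The 9 CHD enzymes, which read histone marks through paired chromodomains, did not pass as represented. In limma's fit, 2 of the 9 had an unadjusted p under 0.05, Chd8 and Chd9. Chd8, a regulator of neurodevelopment that binds beta-catenin, read 11.91, 11.64, 11.75 and 11.72 on the wild-type arrays, against 11.55, 11.38, 11.43 and 11.57 on the knockout arrays. The groups did not overlap, but lay close, with 11.64 the lowest wild-type and 11.57 the highest knockout value. The difference of -0.27 ± 0.0825 (SE) missed the threshold (adjusted p = 0.0516), and it passed in 4 of 18 other settings, with adjusted p from 0.0386 to 0.255. Chd9 read 11.22 ± 0.296 and 11.59 ± 0.252 (SD, n = 4 and 4, adjusted p = 0.167), and without wild-type array 1 the difference was 0.52 (adjusted p = 0.0412). A dim Chd9 probe set fell by 0.32 (adjusted p = 0.0357), opposite in sign to the bright one.

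Chd1, which binds the histone mark of active promoters, read 7.67 ± 0.11 and 7.54 ± 0.158 (SD, n = 4 and 4, adjusted p = 0.409), and 1 of its 3 other probe sets, dim on these arrays, fell by 0.94 (adjusted p = 0.0348). Its relative Chd2 differed by -0.01, with an interval from -0.19 to 0.17. The NuRD ATPases Chd3, Chd4 and Chd5 differed by 0.14, 0.10 and -0.18. Of these, Chd4, the ATPase found most widely in NuRD, read 10.66, 10.69, 10.63 and 10.77 on the wild-type arrays, against 10.69, 10.83, 10.77 and 10.86 on the knockout arrays, with overlapping groups and an interval from -0.06 to 0.26. The Chd3 groups did not overlap (8.12 to 8.29 and 8.30 to 8.37), although the difference did not pass (adjusted p = 0.196). Chd6 differed by 0.10 and Chd7, which is mutated in CHARGE syndrome, by -0.07, both with intervals that held 0.

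The INO80 complex moves nucleosomes and exchanges histone variants at promoters and damaged DNA. Its ATPase Ino80 read 10.11, 9.90, 9.36 and 9.42 on the wild-type arrays, against 9.69, 9.50, 9.84 and 9.75 on the knockout arrays. The knockout values lay inside the wild-type range, and the difference of -0.0039 had an interval from -0.38 to 0.37. Its second probe set had a difference of -0.46 that missed the threshold (adjusted p = 0.0587). Ino80b, Ino80c, Ino80d and Ino80e had differences of -0.18, -0.30, 0.03 and 0.11, of which only Ino80c had an unadjusted p under 0.05 (adjusted p = 0.162). Without wild-type array 3, Ino80c passed (difference -0.41, adjusted p = 0.0274). The antisense RNA Ino80dos, the dimmest member, read 3.35 ± 0.0838 and 3.45 ± 0.0521 and did not pass.

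The 3 Snf2-type enzymes that act alone in genome upkeep did not pass. Smarcad1, which helps restore silent chromatin after replication, read 11.63 ± 0.132 and 11.44 ± 0.0816 (SD, n = 4 and 4, adjusted p = 0.177). Smarcal1, which rewinds DNA at stalled replication forks, read 11.62 ± 0.138 and 11.47 ± 0.191 (adjusted p = 0.426), while its dimmest probe set of 3 rose by 0.25 at adjusted p = 0.0492. Chd1l, which is recruited by poly(ADP-ribose) at DNA breaks, read 11.43 ± 0.0233 and 11.31 ± 0.116 (adjusted p = 0.315). Of the 17 ATPases among the members, 1 passed, and the 16 others had differences from -0.27 to 0.38.

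Of the 6 ARID3, ARID4 and ARID5 genes, 1 fell. Their median absolute difference was 0.62 log2, beside 0.16 over all 42 members and over all genes, and a contrast of these sets was not tested. Arid4a, which binds the retinoblastoma protein and belongs to the Sin3 histone deacetylase complex, read 8.78, 8.68, 8.54 and 8.58 on the wild-type arrays, against 7.92, 7.59, 8.08 and 8.08 on the knockout arrays. All knockout arrays lay below all wild-type arrays. Arid4a fell by 0.73 ± 0.116 (SE) on the log2 scale, with wild type 1.66-fold above knockout (limma adjusted p = 0.00251). Its dimmest probe set fell by 0.37 (adjusted p = 0.0361), and the remaining one had a difference of -0.53 that did not pass.

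Arid4b, the paralogue of Arid4a in the same complex, had a difference of the opposite sign. It read 8.88, 8.61, 7.89 and 7.95 on the wild-type arrays, against 9.20, 8.64, 9.20 and 9.31 on the knockout arrays. Wild-type arrays 1 and 2 were the high ones of their group and knockout array 2 the low one of its own, so the groups overlapped. The difference of 0.76 ± 0.236 (SE) narrowly missed the threshold (adjusted p = 0.0576) and passed in 7 of 18 other settings, with adjusted p from 0.0188 to 0.2. A dimmer Arid4b probe set passed with a rise of 0.35 (adjusted p = 0.0196). The 4 remaining Arid4b probe sets did not pass, with differences of both signs from -0.24 to 0.10. Arid5a, an RNA-binding regulator of inflammatory transcripts, read 8.40, 7.95, 7.89 and 8.56 on the wild-type arrays, against 7.46, 8.11, 7.42 and 7.75 on the knockout arrays. Knockout array 2 lay among the wild-type arrays, and the difference of -0.51 did not pass (adjusted p = 0.106). Arid3a and Arid3b, transcription factors named for their shared DNA-binding domain, had differences of 0.18 and -0.43 that did not pass.

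Arid5b, a DNA-binding protein that works with the histone demethylase Phf2, had far lower signal on the arrays of 2 knockout mice than on the 6 others, a pattern chosen for description after its values were seen. It read 12.01, 11.97, 12.49 and 11.81 in wild type, 11.88 and 12.52 on knockout arrays 1 and 2, and 6.04 and 6.62 on knockout arrays 3 and 4. The first 2 knockout arrays lay among or just above the wild-type arrays, and arrays 3 and 4 lay 5.76 and 5.19 log2 below the lowest of the 6. The value of 6.04 lies below 6.396, the median level of all probe sets, and no detection calls were used, so the difference is given without a fold. The second probe set showed the same split, with 10.52 to 11.59 on the 6 arrays and 4.89 and 4.73 on knockout arrays 3 and 4. The third read 8.28 to 9.07 on the 6 arrays and 6.11 and 5.95 on knockout arrays 3 and 4.

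The 2 dimmest of the 5 Arid5b probe sets differed little between arrays. The fourth read 6.77 to 7.29 on the 6 arrays, with knockout arrays 3 and 4 lower than these by 0.31 and 0.28, and the fifth read 4.08 to 4.45 on all 8. The group difference of -2.80 ± 1.36 (SE) did not pass (adjusted p = 0.213), nor did it without any single array (-3.89 to -1.73, adjusted p from 0.0656 to 0.446). The knockout SD was 3.41, and 2 of 18193 genes, Arid5b included, had one as large. Pooled over both groups, the largest SD among the other members was 0.436, and the median was 0.129, beside 0.146 over all genes. The Arid5b window shown above held none of the 5 motifs searched.

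**Figure D3:**
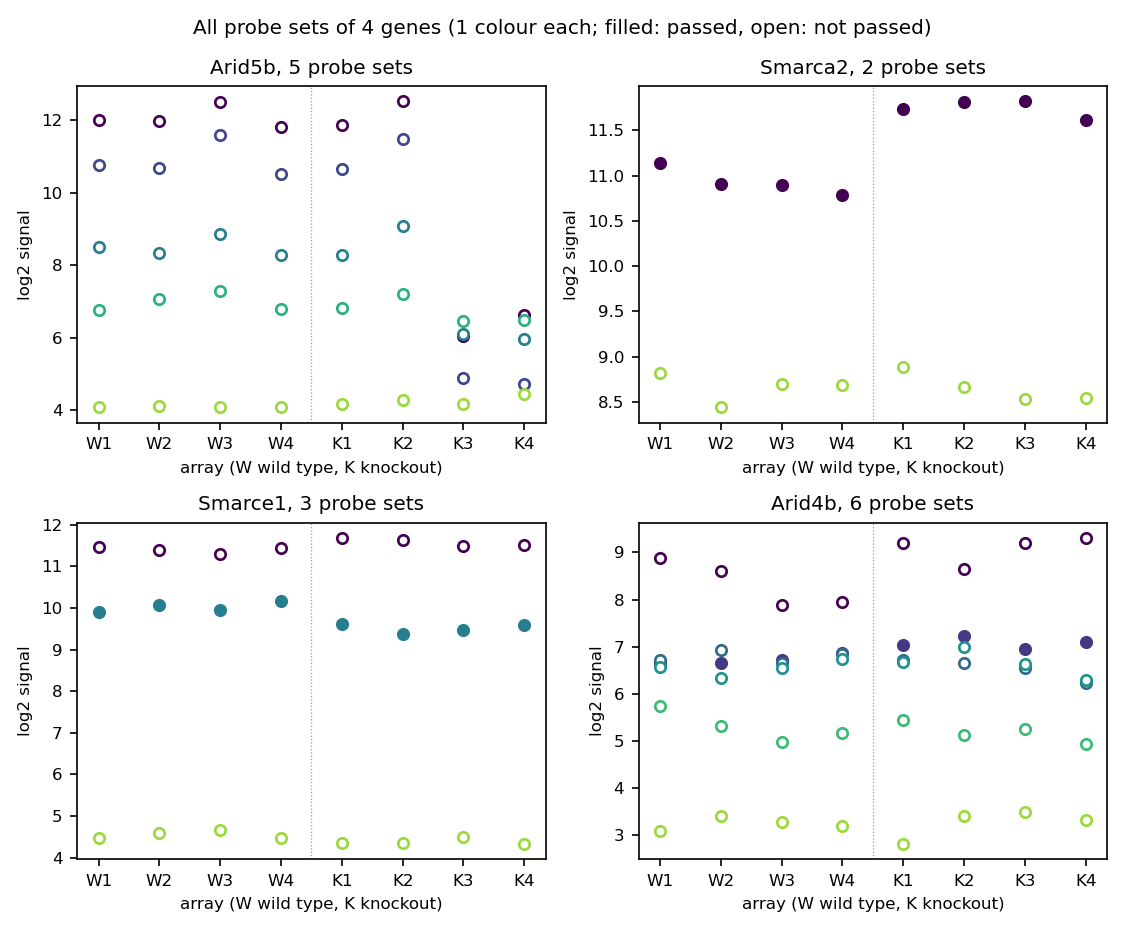
Log2 signal (vertical axis) of all probe sets of Arid5b, Smarca2, Smarce1 and Arid4b on the 8 arrays (horizontal axis, W1 to W4 wild type and K1 to K4 knockout), with 1 colour per probe set, filled points for probe sets that passed and open points for those that did not. The 3 brightest Arid5b probe sets drop on K3 and K4, the 2 Smarca2 probe sets differ in response, and the 2 brightest Smarce1 probe sets move in opposite directions.

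Of the 42 members, 30 had more than 1 probe set. Of the 4 that passed, all had several, and in 2 (Arid2 and Arid4a) another probe set passed in the same direction, in 0 the opposite way. A further 9 probe sets that did not represent their gene passed, 3 with a rise and 6 with a fall. They belong to Arid2, Arid4a, Arid4b, Chd1, Chd9, Smarcal1, Smarcb1, Smarcc1 and Smarce1, so that 7 genes counted as not passing had a probe set that did. Of all 105 member probe sets, 13 passed (12.4%). The matching counts over all probe sets and all genes were not made, so neither number is set against a background.

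Genes whose proteins work with the remodellers were read from lists of complexes, together with a list of 11 further Snf2-type ATPases. The latter are enzymes in their own right, but all the listed genes are called partners here. Of 71 genes measured, 7 rose and 10 fell, or 23.9%, beside 21% of all genes, with a median difference of -0.07. The list of 11 ATPases supplied 1 of the rises and 4 of the falls. The balance of the directions turned with the scaling, to 10 that rose and 9 that fell after quantile normalisation and to 13 and 6 after cyclic loess. Without wild-type array 2, wild-type array 4 or knockout array 2, 6 of these genes fell in place of 10.

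In the SWI/SNF partner list, 2 of 18 genes rose and 1 fell. Dpf3, a reader of acetylated histones known from heart and muscle, had group means of 10.58 ± 0.111 and 11.58 ± 0.307 (SD, n = 4 and 4), a 1.99-fold rise. Its second probe set differed by -0.11 and did not pass. Ss18l1 rose by 0.31 and its paralogue Ss18, the subunit fused in synovial sarcoma, fell by 0.26. The Ss18l1 and Ss18 calls ended without 6 and 4 of the single arrays in turn, at adjusted p up to 0.0611 and 0.061. The 1 other probe set of Ss18l1 passed with a rise of 0.62, and 0 of the 2 others of Ss18 passed.

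In NuRD, which joins nucleosome remodelling to histone deacetylation, the deacetylase Hdac1 had group means of 8.37 ± 0.323 for wild type and 10.68 ± 0.178 for knockout (SD, n = 4 and 4). Its rise of 2.31 (limma adjusted p = 2.5e-05) was the largest difference of the 71 genes. The histone chaperone Rbbp4 rose by 0.25, a call that ended without 7 of the single arrays in turn (adjusted p up to 0.111), and 10 of 12 genes did not pass. Of 5 ISWI partners 0 passed in limma, although 4 had an unadjusted p under 0.05. The lowest was that of Chrac1, which read 6.56 to 7.01 in wild type and 7.08 to 7.23 in knockout (adjusted p = 0.0561).

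Of 9 INO80 partners, Yy1, a zinc finger transcription factor, read 9.34 ± 0.568 and 10.57 ± 0.406 and rose 2.35-fold (limma adjusted p = 0.016), and 1 of its 3 other probe sets passed in the same direction. Actr8, an actin-related subunit, fell by 0.33. In the SRCAP and TIP60-p400 complexes, which place the histone variant H2A.Z and acetylate histones, 1 of 16 genes rose and 4 fell. The scaffold Trrap rose by 0.71 ± 0.139 (SE). Ing3 and the ATPase Srcap fell by 0.62 and 0.42, and Mbtd1 and Kat5, named after their values were seen, completed the count. The calls of Mbtd1 and Kat5 ended without 4 and 7 of the single arrays in turn (adjusted p up to 0.0581 and 0.121). In the same direction, 1 of 3 other probe sets of Mbtd1 and the 1 other of Kat5 passed. For Ing3 and Srcap, 0 of 3 other probe sets passed. Ing3 was at 0.009 (adjusted p = 0.969) when read from a probe set without a suffix, and Srcap at -0.09 (adjusted p = 0.441) over the mean of its probe sets.

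Of 11 further Snf2-type ATPases, 1 rose and 4 fell. Hltf, which reverses stalled replication forks, read 9.59 ± 0.262 and 10.93 ± 0.389 (SD, n = 4 and 4) and rose 2.54-fold (limma adjusted p = 0.00149). Shprh, a ubiquitin ligase related to Hltf, and Zranb3, an enzyme of replication fork repair, fell by 0.72 and 0.65. No other probe set of Hltf, Shprh or Zranb3 passed. The 2 others of Hltf differed by 0.04 and 1.10, the 4 of Shprh by -0.92 to -0.135 and the 1 of Zranb3 by -0.22. Hells, which supports DNA methylation, and the recombination enzyme Rad54l, both named after their values were seen, fell by 0.47 and 0.30. Another Hells probe set passed in the opposite direction, and over the mean of its probe sets Hells was at -0.03 (adjusted p = 0.816). The Rad54l call ended without 6 of the single arrays in turn (adjusted p up to 0.105). Its 3 other probe sets had differences of the opposite sign, from 0.06 to 0.18, that did not pass, and the mean of all 4 was at 0.0076 (adjusted p = 0.946). Btaf1, also chosen after its values were seen, had the largest difference of this list, 1.66, but did not pass. It read 9.60, 7.62, 7.41 and 6.75 on the wild-type arrays, against 9.97, 8.32, 9.48 and 10.27 on the knockout arrays, with wild-type array 1 within the knockout range.

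**Figure D4:**
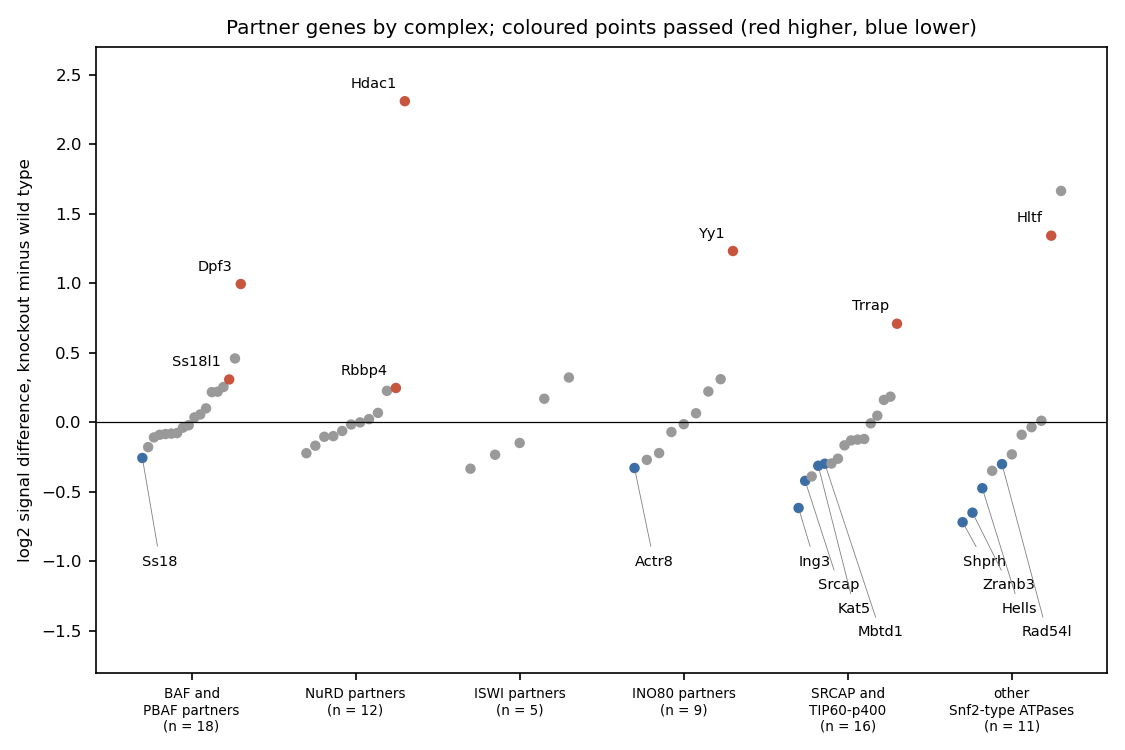
Log2 signal difference, knockout minus wild type (vertical axis), of 71 genes in 6 lists (horizontal axis), 1 of them that of further Snf2-type ATPases. Each point is 1 gene from 4 and 4 arrays. Points are red where the gene rose, blue where it fell and grey where it did not pass. Hdac1 (2.31) is the highest point, the grey point at 1.66 is Btaf1, which did not pass, and the ISWI list holds no coloured point.

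The arrays carried the marker genes of oocytes. Zp1, Zp2, Zp3, Gdf9 and Nlrp5 read from 13.52 to 14.63 in group means and did not pass. Of 14 oocyte markers, 5 fell (35.7%, beside 12.8% of all genes) and 0 rose. Those that fell were Mos, Figla, Kit, Dppa3 and Ooep, by 0.24 to 0.61. The summed signal of 16 cumulus and granulosa markers was lower in knockout, at 13.00 to 13.58 log2 on wild-type and 12.36 to 12.79 on knockout arrays (exact two-sided permutation p = 0.0286, the smallest that 4 against 4 arrays can give). Of these markers 9 fell (56.2%, beside 12.8% of all genes) and 0 rose, and Foxl2, Amh and Kitl were among the 7 that did not pass. The sum of 9 blood, vessel and theca markers was 11.07 to 11.43 in wild type and 10.30 to 10.52 in knockout (exact two-sided permutation p = 0.0286). Of the 9, 3 fell and 1 rose (33.3% and 11.1%, beside 12.8% and 8.18% of all genes). Mrc1, a macrophage and endothelial receptor, fell by 3.13, and the vessel markers Tek and Kdr fell by 0.78 and 0.54. The macrophage marker Cd68 rose by 1.16, and Pecam1, Cyp17a1, Lyz2, Ptprc and Col1a1 did not pass. Without Mrc1, a choice made after seeing the data, the sums overlapped, at 10.32 to 10.51 in wild type and 10.14 to 10.33 in knockout. The cumulus and granulosa sum moved with the genotype, and the blood, vessel and theca sum did so without overlap only with Mrc1 included. The part of these sums in the falls of Arid2 and Arid4a was not tested. Across knockout arrays 1 to 4 in turn, the cumulus sum was 12.63, 12.48, 12.36 and 12.79, the blood, vessel and theca sum 10.31, 10.30, 10.34 and 10.52, and the oocyte sum 17.56, 17.62, 17.55 and 17.54. On arrays 3 and 4, where Arid5b was low, the blood, vessel and theca sum was above and the oocyte sum below both other knockout arrays. For array 3 these gaps were smaller than the knockout SDs of 0.106 and 0.0359, so its place is not distinct from that of array 1. The cumulus sum lay on either side. The part of these sums in the Arid5b split was not tested.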

How the data were processed

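Each mouse gave 1 column of deposited log2 signals, 1 value per probe set. The authors used RMA and Partek to make these log2 values, per the submitters' processing notes. Their versions are not given in the sources used here. Of 45101 probe sets, 64 controls were left out. Names came from the platform annotation and RefSeq's gene table (GRCm38.p6), and 1 probe set shared by Ino80 and other genes was left out. Group differences were estimated by limma 3.58.1 (R 4.3.3; lmFit, eBayes, no covariates) on all 45037 probe sets, with Benjamini-Hochberg adjustment over all of them and a threshold of 0.05. The procedure was tested on simulated data. Rose and fell refer to this test, n is 4 and 4 arrays throughout, and this number limits the precision. Each mouse is its own sample in the labels. Array pairs correlated at 0.9915 to 0.9947 within and 0.9797 to 0.9865 between groups, across probe sets that are themselves not independent.

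Named with values were members past the threshold or with another probe set that was, and all ATPases. Values by array are given for the 4 members of lowest p on each side, and each partner list is named by up to 2 genes a direction. Members, lists and tests were chosen with earlier results of these data known. Other settings left out dim probe sets, rescaled the arrays in 3 ways, changed the variance model in 2 ways, used a random block, adjusted over genes, chose probe sets in 2 other ways and dropped each array.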

Additional observations from a re-analysis of the deposited data

Results flagged for a closer look

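Of 94 sets of 4 values (42 members and 5 quality and marker measures in each group), 4 held an array whose distance from its closest neighbour took up nearly the whole spread of the set. Chance gives about 4.7 at 1 in 20. Arid2 read 12.93 on wild-type array 2, with the remaining wild-type values at 13.02 to 13.03. Baz2b read 11.35 on knockout array 2, with the remaining knockout values at 11.65 to 11.71. Wild-type array 3 was low in Ino80c (7.45, others 7.90 to 7.95) and in Arid3b (6.99, others 7.95 to 8.15). The limma calls of Arid2 and Baz2b held without any single array (adjusted p at most 0.01 and 0.0245).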

How the results depend on the processing

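Arid2, Arid4a and Baz2b kept direction and call in all 18 alternatives, and Smarca2 in 17, the exception being the fit without suffixed probe sets where avoidable, where it turned to -0.01018 (adjusted p = 0.966) and 1 member rose. Members that rose numbered 4 after quantile normalisation and 6 after cyclic loess, and members that fell 4 when each gene was the average of its probe sets. Cyclic loess moved the median of the members to 0.0631 and that of all genes to 0.0075, and gave 13 partners that rose and 6 that fell. Among partners, Ing3 turned to 0.009005 without suffixed probe sets and Rad54l to 0.007614 over the average of its probe sets. The cause was not tested. Leaving out single arrays gave 2 to 4 members that rose, 2 to 4 that fell and 6 to 12 partners that fell. Without the ARID3 to ARID5 genes and the antisense RNA, an alternative chosen after seeing the data, 1 member fell. The share of members that passed was 9.52% to 19% in the 18 alternatives and below that of all genes in each (19% and 19.8% with cyclic loess, the nearest). Of 754 member values, 22 newly passed and 0 lost the call with the sign kept. Among members that did not pass, 33 values turned sign. The first number of the title code, taken as a random block, left the counts of members at 2 and 2. With no detection calls used here, dim probe sets have no stated background.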

Other observations

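Arid5b was set beside its neighbours on chromosome 10, after its values were seen. Of the 4 nearest measured genes on either side, Zfp365 rose by 0.43 (adjusted p = 0.00158, limma) and Rtkn2 fell by 0.61 (adjusted p = 0.0162), and the other 6 did not pass. Rtkn2 read 8.14, 8.20, 8.46 and 8.33 on the wild-type arrays, against 7.77, 7.93, 7.73 and 7.26 on the knockout arrays. Rtkn2 was thus lowest on knockout arrays 3 and 4, for array 3 by little. Apart from Rtkn2 and Rhobtb1, the neighbours read near or below 6.396, the median level of all probe sets. Such levels leave little room for a drop like that of Arid5b. In Rhobtb1, knockout arrays 3 and 4 did not stand apart, at 10.09 and 10.13, against 10.29 and 10.18 on knockout arrays 1 and 2.

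Splits of 2 arrays from the other 6 by at least 2 log2 were counted for every pair of arrays. They were found in 16 of 18193 genes, always with the pair below, and Arid5b was the 1 gene that knockout arrays 3 and 4 shared, with a gap of 5.19. No other pair had more than 2 such genes. Pnpla3 had a larger gap, 6.03, with wild-type array 4 and knockout array 4 below. Pairs within wild type also split, as in 9130409I23Rik, with a gap of 3.71 on wild-type arrays 1 and 4.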
